A study of Bos taurus with 15 samples.

Results

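The keratins of stratified and simple epithelium were followed across single-cell RNA sequencing libraries of Holstein cattle, as 10 genes: *KRT1*, *KRT5*, *KRT7*, *KRT8*, *KRT10*, *KRT14*, *KRT15*, *KRT17*, *KRT18*, and *KRT19*. They were taken by symbol, and each symbol was carried by 1 of the 27270 genes in the count tables, which hold 50 genes with a keratin symbol. The 15 libraries came from newborn (NB) calves (11 libraries: liver, salivary gland, the stomach chambers reticulum, omasum, and abomasum, and 6 gut tissues, namely duodenum, jejunum, and ileum with cecum, colon, and rectum) and from an adult (AD) cow (duodenum, jejunum, cecum, and colon, 4 libraries). The reticulum and omasum belong to the forestomach, the abomasum is the glandular stomach, and the salivary gland was the parotid. The AD tissues were taken from a single lactating cow, and the calf behind each NB library was not given in the sources used here. AD duodenum and cecum were dissociated with a lamina propria kit and AD jejunum and colon with a multi-tissue kit. The NB stomach and gut tissues were first treated with EDTA and trypsin, and then with the enzymes of a propria kit (gut) or with an enzyme mix that held collagenases (stomach), whereas NB liver and salivary gland were treated with other collagenase mixes. Stage, animal, and dissociation cannot be told apart.

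Keratins are the intermediate filament proteins of epithelial cells, and each filament pairs a type I with a type II keratin. *KRT5* (type II) pairs with *KRT14* (type I) in the basal layer of stratified epithelium, where *KRT15* (type I) is also typical, and *KRT17* (type I) is known from basal, activated, and appendage keratinocytes. *KRT1* (type II) and *KRT10* (type I) pair in the layers above the basal layer of skin. *KRT8* (type II) and *KRT18* (type I) form the filaments of simple epithelium, *KRT19* (type I) accompanies them in gut and duct cells, and *KRT7* (type II) is known from ducts and glands. In the RefSeq annotation of the ARS-UCD2.0 assembly, the type II members and *KRT18* lie on chromosome 5 and the other type I members on chromosome 19. There *KRT18* lies beside *KRT8*, and *KRT15* beside *KRT19*. No table with their sequences was at hand, so none is shown.

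Of 172405 barcodes, 119798 were kept, with 17707625 to 129458578 unique molecular identifiers (UMIs, 1 per captured RNA molecule) per library and medians of 3541 to 8850.5 UMIs per kept barcode. No pair of libraries shared more than 34 barcodes, or more than 0.497% of the smaller library. Levels are given as UMIs scaled to a total of 1000000 (CPM) over all kept barcodes or over EPCAM barcodes, which hold at least 1 UMI of *EPCAM*, an epithelial adhesion gene. There were 26027 EPCAM barcodes in all, from 72 in salivary gland to 6591 in NB omasum. Every tissue and stage had 1 library, so no difference has a replicate check or a test, and the 95% intervals (exact Poisson for CPM, Clopper-Pearson for shares) cover counting error only. In EPCAM barcodes the stratified epithelium gene *TP63* was at 43.5 CPM in reticulum and 40.2 CPM in omasum and at 0 in the other 13 libraries, and the calf rennet gene *CYM* reached 240823 CPM in abomasum. Other lists were less clear. The intestine gene *FABP2* was at 0.157 CPM in NB rectum and 0.726 CPM in NB cecum, against 6126 CPM in NB duodenum, while *CDX2* was at 28.6 to 67.04 CPM in the NB gut. The salivary gland genes were weak, with *CA6* at 15.3 CPM and *BPIFA2A* at 70.9 CPM there but at 935 and 1007 CPM in the forestomach libraries. Many EPCAM barcodes also carried *PTPRC*, a leukocyte gene: 45.1% to 76.7% in the AD libraries, 51.4% in salivary gland, 37.9% in liver, and 29.7% or less in the others. The fibroblast gene *COL1A2* was present in 35.9% of NB rectum, 34.8% of NB cecum, 18.1% of salivary gland, and 12.5% or less of the other EPCAM barcodes. *CDH1*, another epithelial gene, was present in 5.18% of AD duodenum EPCAM barcodes and in 26.4% to 56.0% of those of the others. The part of leukocyte and fibroblast RNA in the results was not tested, and stage values are given with and without such barcodes.

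The forestomach libraries carried *KRT5*, *KRT14*, *KRT15*, and *KRT17* at far higher levels than the other 13 libraries. *KRT5* was at 6421 CPM in reticulum (interval 6399 to 6443) and at 7616 CPM in omasum (7596 to 7636). *KRT14* was at 4287 and 5573 CPM, in that order of the tissues. *KRT15* was the highest of the members in both, at 7754 and 8640 CPM. *KRT17* was at 1636 and 2497 CPM. These 4 genes were at 0 to 4.07 CPM in the EPCAM barcodes of abomasum and of the NB gut, apart from *KRT15* in rectum, and at most at 0.303 CPM in the AD gut. The highest values elsewhere were those of salivary gland, with 21.1 CPM of *KRT5*, 90.0 CPM of *KRT15*, and 13.4 CPM of *KRT17*, whereas *KRT14* had no UMI there (limit of 3 counts, 5.75 CPM).

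Nearly every forestomach barcode was positive. *KRT5* had a UMI in 99.8% of reticulum and 99.6% of omasum EPCAM barcodes, and still in 95.5% and 95.01% once each barcode had been thinned to 1000 UMIs, which left out 1 barcode in reticulum and none in omasum. At 1000 UMIs *KRT15* was present in 91.2% and 93.6%, *KRT14* in 76.2% and 84.4%, and *KRT17* in 44.4% and 42.4%. Forestomach barcodes without an *EPCAM* UMI, 2981 in reticulum and 3406 in omasum, also held 5505 and 6929 CPM of *KRT5* and 7766 and 9955 CPM of *KRT15*. Other cell classes of the same libraries, set by 1 marker with none of the others, held less. *KRT5* was at 2597 and 2432 CPM in the 170 and 388 fibroblast barcodes (*COL1A2*) and at 509 and 470 CPM in the 316 and 199 endothelial barcodes (*PECAM1*). These values show how much keratin RNA is read in forestomach barcodes of other classes, and its source was not tested.

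**Figure D1:**
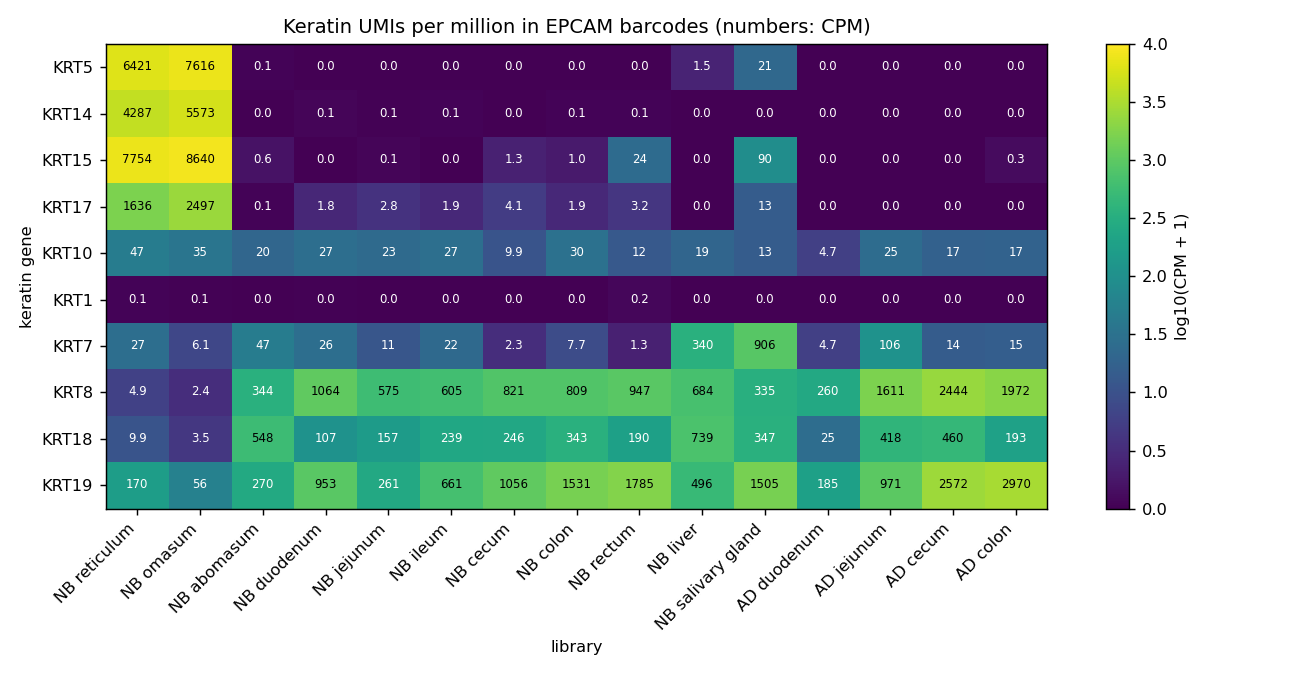
CPM of the 10 keratins (rows) in EPCAM barcodes of the 15 libraries (columns), coloured by log10(CPM + 1) with the CPM printed in each cell. *KRT5*, *KRT14*, *KRT15*, and *KRT17* stand between 1636 and 8640 CPM in reticulum and omasum and at 90 CPM or less elsewhere, and *KRT8* shows the reverse.

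*KRT8*, *KRT18*, and *KRT19*, of simple epithelium, were lowest in the same libraries. *KRT8* was at 4.95 CPM in reticulum (4.34 to 5.61) and at 2.37 CPM in omasum (2.02 to 2.75), against 335 CPM (salivary gland) to 1064 CPM (duodenum) in the other NB libraries. Their order depended on the barcodes taken: without *PTPRC* or *COL1A2* barcodes the range was 345 CPM (abomasum) to 1324 CPM (rectum), and in barcodes with *CDH1* it was 330 CPM (liver) to 1442 CPM (rectum). *KRT18* was at 9.90 CPM in reticulum and 3.49 CPM in omasum, at 107 CPM (duodenum) to 739 CPM (liver) in the other NB libraries, and at 25.5 CPM in AD duodenum, the lowest AD library. At 1000 UMIs *KRT8* had a UMI in 0.349% of reticulum and 0.288% of omasum EPCAM barcodes. Leukocyte barcodes, a class that should lack it, numbered 10 and 7 in these libraries and held no *KRT8* UMI at this depth, too few to give a background. Without thinning, the 170 and 388 fibroblast barcodes held *KRT8* at 100% and 88.9% of its level in barcodes with *EPCAM* alone. For *KRT18* these values were 16.5% and 120%. The 316 and 199 endothelial barcodes held neither gene, and the source of this RNA was not tested. In the other 13 libraries, where epithelial *KRT8* was far higher, the share in leukocyte barcodes ran from 0.0744% to 3.02%. *KRT19* was present at a higher level, with 170 CPM in reticulum and 55.6 CPM in omasum, below the 261 CPM of NB jejunum, the lowest of the other NB libraries. *KRT7* did not separate the forestomach: 26.6 CPM in reticulum and 6.13 CPM in omasum lay within the range of 1.33 CPM (rectum) to 906 CPM (salivary gland).

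A gene was called higher in the forestomach where the lower of both forestomach libraries was at least 4-fold above the highest of the 9 other NB libraries on the log2(CPM + 5) scale, which understates folds against low values, and lower by the reverse rule. Of the 10 members, 9 reached the mean of 10 CPM that the comparison required, and *KRT1* did not. Called higher were 4 members, beside 73 of 7546 genes over the whole table (0.967%), and 2 were called lower, beside 20 genes (0.265%). *KRT5*, *KRT14*, and *KRT17* had means of 2.52, 0.0538, and 3.24 CPM over the 9 other NB libraries and so passed the required mean through the forestomach alone, whereas *KRT15* had 13.0 CPM, most of it from salivary gland. *KRT8* and *KRT18* were below 10 CPM in both forestomach libraries. Their means over the 9 other NB libraries were 687 and 324 CPM, so they passed the required mean through those libraries alone. The counts of members called higher and lower are therefore descriptions only. The gap between the lowest forestomach library and the highest other library was 9.71 (log2) for *KRT14*, 7.95 for *KRT5*, 6.48 for *KRT17*, and 6.35 for *KRT15*. For *KRT15* it was 3.09 without the upper limits on genes and UMIs, where salivary gland held 770 CPM, and without salivary gland it was 8.07 for *KRT15*, 9.95 for *KRT5*, and 7.50 for *KRT17*. The gap below the lowest other library was 5.10 for *KRT8* and 2.91 for *KRT18*. *KRT19* was 1.52-fold below the lowest other library (above it over all kept barcodes, at 3.28 log2), and *KRT10* 1.13-fold above the highest (below it, at -0.37 log2, when the most abundant genes were left out of the scaling), so neither was called. The 4-gene and 2-gene calls were the same without the salivary gland, the liver, or both. Over all kept barcodes no member was called lower. Liver and salivary gland then held 14.9 and 12.9 CPM of *KRT8*, and EPCAM barcodes made up 1.87% and 2.73% of those libraries.

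Genes that accompany keratins in stratified epithelium were counted from lists. Of 40 other keratins, 4 were tested and 2 were called higher: *KRT4*, a keratin of internal stratified epithelium, and *KRT6A*, a partner of *KRT17* in activated keratinocytes. Of 12 cornified envelope genes in the tables, 5 were tested and 3 called higher, and of their 2 most abundant members *KRTDAP*, a keratinocyte differentiation gene, was at 272 and 783 CPM with at most 0.112 CPM in the other NB libraries, whereas *SPINK5*, a protease inhibitor gene, stood 3.77-fold above the highest other library and was not called. Of 9 tested desmosome genes 6 were called higher, among them *PERP* (1231 and 1885 CPM, at most 178 CPM in the other NB libraries) and the plakoglobin gene *JUP* (365 and 551 CPM, at most 74.1 CPM). Desmosomes are the cell junctions to which keratin filaments attach, and hemidesmosomes anchor them to the basement membrane. Of 7 tested hemidesmosome genes 1 was called higher, *COL17A1* (1259 and 1093 CPM, at most 6.98 CPM in the other NB libraries), whereas *CD151* overlapped the other NB libraries (153 and 199 CPM, against 111 to 236 CPM). Of 7 tested regulators of stratified epithelium 1 was called higher, *SOX15* (91.5 and 95.3 CPM, at most 4.49 CPM in the other NB libraries). The most abundant of them, *KLF5* (331 and 498 CPM) and *KLF4* (278 and 404 CPM), were 1.50-fold and 2.11-fold above the highest other library and not called. *TP63*, at 43.5 and 40.2 CPM and at 0 in the other NB libraries, missed the required mean and was not tested. Of 7 tested regulators of simple gut epithelium 1 was called lower, *ELF3*, at 2.96 and 2.63 CPM against at least 85.8 CPM in the other NB libraries and at least 42.4 CPM when the AD libraries are included, and *FOXA2* was at 5.81 and 4.06 CPM within a range of 0 to 68.9 CPM. Genes at or near 0 in the other NB libraries, such as *KRT4*, *KRT6A*, and *KRTDAP*, passed the required mean through the forestomach alone and so had to differ, and the counts are given as a description only.

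Taking the UMIs of all genes with a keratin symbol in the EPCAM barcodes together, the makeup differed between the forestomach and the other libraries. *KRT13* has no symbol in the count tables, so the totals and shares below leave it out. UMIs of this 3′ assay count molecules and not bases, so shares of genes are not scaled by length, although capture and 3′ annotation can differ between genes. *KRT5*, *KRT14*, *KRT15*, and *KRT17* gave 86.9% of the keratin UMIs in reticulum and 70.4% in omasum, and *KRT7*, *KRT8*, *KRT18*, and *KRT19* gave 0.912% and 0.196%. In the 13 other libraries the latter 4 gave 65.9% (NB jejunum) to 98.9% (liver), and the former at most 3.72% (salivary gland). Among keratins outside the members, *KRT20* reached 821 CPM in the other NB libraries, against 0.0409 CPM in reticulum and 0.521 CPM in omasum. Keratins with a symbol made up 23138 CPM in reticulum and 34562 CPM in omasum, and 598 CPM (AD duodenum) to 6330 CPM (AD cecum) elsewhere. Members were fewer of the keratin UMIs in omasum than in reticulum (70.7% against 88.0%).

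**Figure D2:**
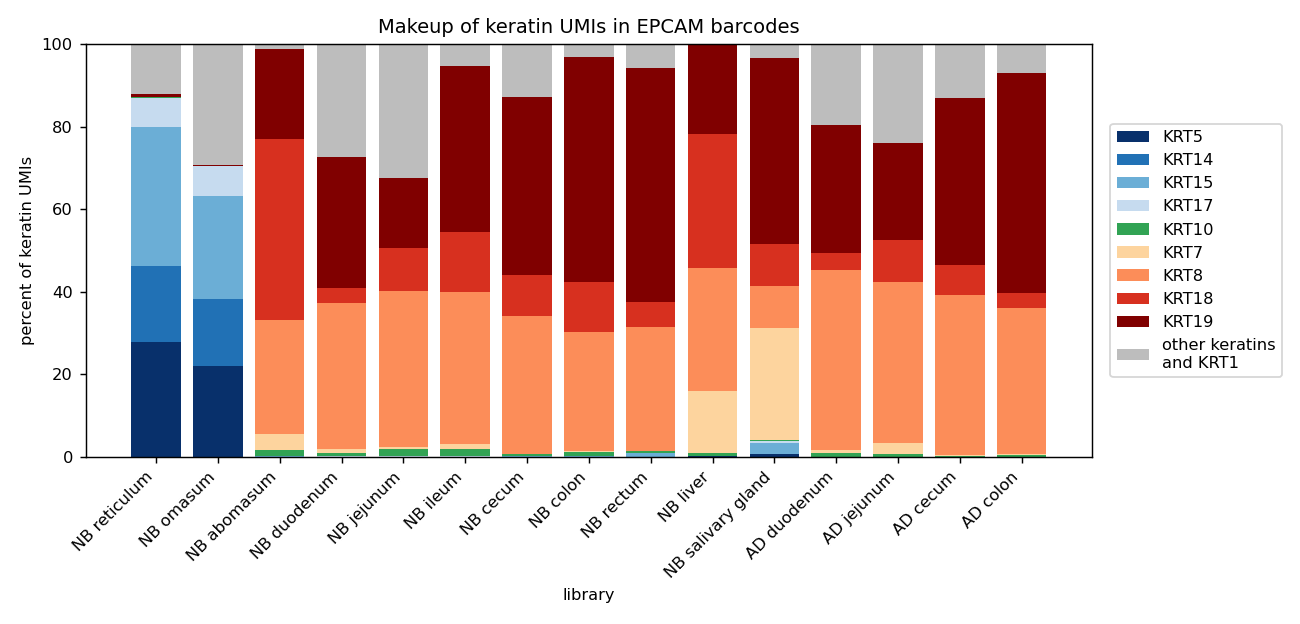
Percent of all UMIs of genes with a keratin symbol (y axis) that fell to each member, by library (x axis), in EPCAM barcodes, with other keratins and *KRT1* in grey. Blue shades (*KRT5*, *KRT14*, *KRT15*, and *KRT17*) fill 86.9% and 70.4% of the bars of reticulum and omasum. Orange and red shades (*KRT7*, *KRT8*, *KRT18*, and *KRT19*) fill 65.9% to 98.9% of the others.

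Reticulum and omasum also differed from each other. *KRT7* was 2.84-fold and *KRT19* 2.88-fold higher in reticulum on the log2(CPM + 5) scale, the 2 members past 2-fold among 86 of 6566 genes (1.31%). No member was 2-fold higher in omasum, where 70 genes (1.07%) were. *KRT5*, *KRT14*, *KRT15*, and *KRT17* were 1.19-fold, 1.30-fold, 1.11-fold, and 1.52-fold higher in omasum. The non-member *KRT4* was 4.50-fold higher in omasum (8518.7 against 1889 CPM), above every member but *KRT15* there, and *KRT6A* 1.81-fold (1441 against 795 CPM). *KRT8* and *KRT18* were too low for the comparison. Over all kept barcodes *KRT7* and *KRT19* were 2.77-fold and 2.64-fold higher in reticulum. How reads shared by close keratin copies such as *KRT14*, *KRT16*, and *KRT17*, or *KRT6A* and *KRT6B*, were counted was not given, so the split between them is uncertain.

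The stratified keratins varied within each forestomach library along genes of the basal and of the outer layers. EPCAM barcodes thinned to 1000 UMIs were split by whether they held a UMI of the hemidesmosome list, of the cornified envelope list, or of both, a split chosen after the counts had been seen. *KRT15* stood at 9872 CPM in the 2814 reticulum barcodes with hemidesmosome UMIs alone, at 5845 CPM in the 453 with both, and at 2933 CPM in the 270 with cornified envelope UMIs alone. *KRT17* went the other way, from 842 to 2636 and 5244 CPM. In omasum *KRT15* stood at 11129, 6917, and 3665 CPM and *KRT17* at 662, 4091, and 7472 CPM, over 4125, 942, and 775 barcodes. The order of the 3 groups was thus the same in both tissues for both genes. The 477 reticulum and 749 omasum barcodes with UMIs of neither list held 7755 and 8862 CPM of *KRT15* and 1193 and 1348 CPM of *KRT17*, between the groups with hemidesmosome UMIs alone and with both. *KRT5* was ordered like *KRT15*, from 6912 to 3196 CPM in reticulum and from 8341 to 4843 CPM in omasum. *KRT14* had no common order, with 3714, 4925, and 4285 CPM over the same 3 groups in reticulum and 5312, 5323, and 4675 CPM in omasum. In barcodes with neither, *KRT14* was at 3579 and 5753 CPM. *KRT19* was at 177 and 81.5 CPM in the outer pair of groups in reticulum and at 65.0 and 34.8 CPM in omasum. The groups depend on depth. Without thinning, only 11 reticulum and 22 omasum barcodes had cornified envelope UMIs alone. In the outer pair *KRT19* was then at 193 and 309 CPM (12 UMIs) in reticulum and at 71.0 and 19.1 CPM (2 UMIs) in omasum. *KRT14* was then at 3369 and 1930 CPM in reticulum and at 5239 and 4447 CPM in omasum. *KRT15* and *KRT17* kept their order. The barcodes of a library are not replicates, so these are descriptions of 2 libraries.

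**Figure D3:**
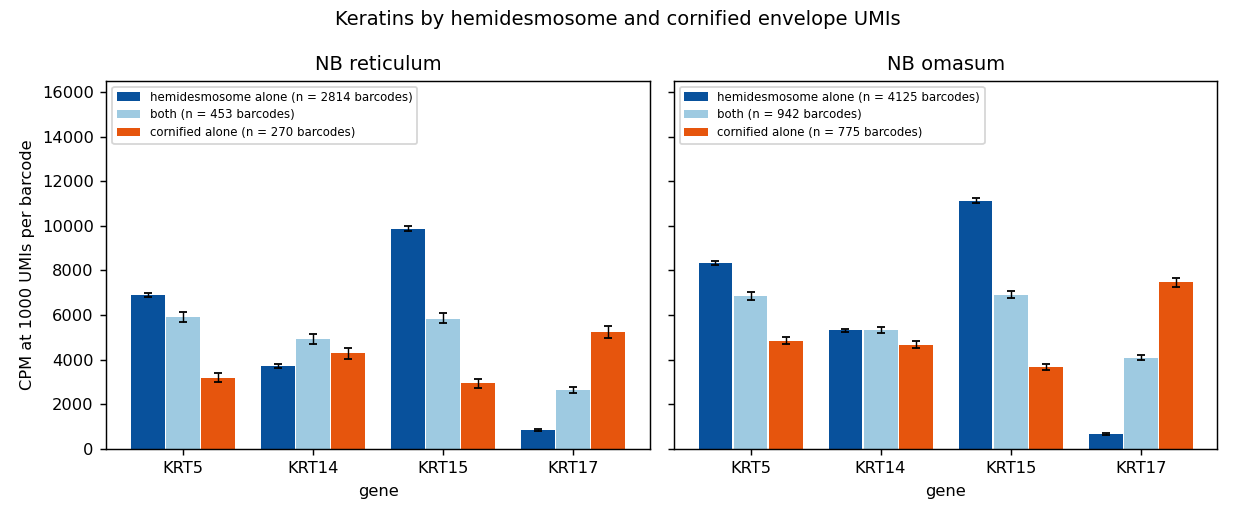
CPM of *KRT5*, *KRT14*, *KRT15*, and *KRT17* (y axis, barcodes thinned to 1000 UMIs) in reticulum and omasum EPCAM barcodes with UMIs of hemidesmosome genes alone, of both lists, or of cornified envelope genes alone; bars start at 0 and error bars are 95% Poisson intervals. *KRT15* runs from 9872 to 2933 CPM and from 11129 to 3665 CPM from left to right, and *KRT17* from 842 to 5244 CPM and from 662 to 7472 CPM.

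Single barcodes showed the same contrast. At 1000 UMIs *KRT15* and *KRT17* met in 37.0% of reticulum and 36.8% of omasum EPCAM barcodes, where 40.5% and 39.7% would follow from their separate shares (log2 odds ratio -2.94 and -3.26). *KRT5* and *KRT15* met more often than their shares give (88.8% against 87.1%, log2 odds ratio 3.50, and 91.0% against 88.9%, 4.39). *KRT5* and *KRT17* met less often (-0.95 in reticulum and -2.44 in omasum). *KRT15* and *KRT19* met more often (2.6 and 1.8). *KRT14* met *KRT5* more often in both tissues (1.26 and 3.78), but with *KRT15* its log2 odds ratio was -0.95 in reticulum and 2.13 in omasum, and with *KRT17* 1.29 and -0.14.

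*MKI67*, a gene of dividing cells, marked barcodes with more *KRT14*. In the 1577 reticulum barcodes with an *MKI67* UMI *KRT14* was at 4982 CPM, against 3156 CPM in the 2437 without (log2 ratio 0.66), and in omasum at 6176 against 4921 CPM (0.33). *KRT15* was lower with *MKI67*, at 6153 against 10346 CPM in reticulum (-0.75) and 7840 against 10036 CPM in omasum (-0.36). *KRT5* was higher in both tissues (0.12 and 0.30), and so was *KRT19* (0.42 and 0.30, counting SE 0.11 and 0.15), whereas *KRT17* differed in sign (0.11 and -0.35). *KRT7* was at -1.07 in reticulum (counting SE 0.35, 22 UMIs with *MKI67*) and at -0.48 in omasum (0.51, 10 UMIs), and *KRT18* at -1.04 (0.60, 7 UMIs) and -0.61 (0.77, 4 UMIs). Barcodes with *MKI67* were deeper before thinning, with medians of 14255 against 10063 UMIs in reticulum and 12807 against 9392 UMIs in omasum, and the part of depth in these differences was not tested.

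In the glandular stomach, gut, liver, and salivary gland, *KRT8* and *KRT18* were both present but in very different proportions. The number of *KRT8* UMIs per *KRT18* UMI was 0.627 in abomasum (0.617 to 0.638), 0.926 in liver (0.845 to 1.014, exact binomial), and 0.967 in salivary gland (0.781 to 1.197). In the NB gut it ran from 2.36 in colon (2.27 to 2.45) to 9.93 in duodenum (9.64 to 10.2), with 3.67 in jejunum, 2.54 in ileum, 3.34 in cecum, and 4.98 in rectum. The counting intervals of all 6 NB gut libraries lay above those of abomasum, liver, and salivary gland. Where the AD gut was measured, the ratio was 10.2 in duodenum (6.87 to 15.8), 3.86 in jejunum, 5.31 in cecum, and 10.2 in colon (9.40 to 11.1). *KRT18* itself was at 739 CPM in liver and 548 CPM in abomasum. Among NB libraries outside the forestomach it was lowest in duodenum, at 107 CPM, and also without *PTPRC* or *COL1A2* barcodes (111 CPM) and in barcodes with *CDH1* (97.2 CPM). Among NB gut tissues *KRT19* was ordered from jejunum (261 CPM) through ileum (661 CPM), cecum (1056 CPM), and colon (1531 CPM) to rectum (1785 CPM), with duodenum at 953 CPM. No neighbours in this order overlapped in counting interval. Without *PTPRC* or *COL1A2* barcodes, however, cecum was at 1675 CPM (1628 to 1723) and overlapped colon at 1712 CPM (1686 to 1738), and the other neighbours stayed apart.

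Leukocyte barcodes give the background for these genes. Across the 13 libraries other than reticulum and omasum, *KRT8* had a median of 1043 CPM in barcodes with *EPCAM* alone and of 4.76 CPM in leukocyte barcodes (*PTPRC* alone, at most 18.9 CPM), and *KRT19* 1431 and 4.13 CPM (at most 34.2 CPM). At 1000 UMIs the share of NB duodenum barcodes with a *KRT8* UMI was 51.0% in EPCAM barcodes and 1.63% in leukocyte barcodes. For *KRT19* these shares were 43.9% and 1.22%.

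*KRT7* was high in few libraries. It was at 906 CPM in salivary gland (826 to 991), 340 CPM in liver (309 to 373), and 106 CPM in AD jejunum, and at 1.33 to 47.3 CPM in the other NB libraries outside the forestomach. The levels of salivary gland and liver depended on the barcodes taken, with 1859 and 158 CPM in barcodes with *CDH1* and 2194 and 493 CPM in EPCAM barcodes without *PTPRC* or *COL1A2*. In liver it had a UMI in 51.9% of EPCAM barcodes (30.1% of those with *CDH1*). The liver EPCAM barcodes as a whole, with or without *KRT7*, held genes of the cholangiocyte and of the liver marker lists. Of the cholangiocyte list *SPP1* was at 541 CPM (1132 CPM in salivary gland), *ONECUT1* at 380 CPM, and *SOX9* at 14.2 CPM, and of the liver list *APOA1* was at 31885 CPM (14059 CPM in NB jejunum and 5986 CPM in NB duodenum), *TF* at 2360 CPM, *ALB* at 667 CPM, and *FGB* at 65.1 CPM. In salivary gland the 19 EPCAM barcodes with a *KRT7* UMI (a split made after the values were seen) also held 981 CPM of *KRT8*, 1016 CPM of *KRT18*, and 4527 CPM of *KRT19*, whereas the 53 without it held 17.2 CPM of each, and 67.9% of the latter carried *PTPRC* against 5.26% of the former. *KRT7* and *KRT19* met in 14 of its 71 barcodes at 1000 UMIs (19.7%, where their separate shares give 5.65%). Of the 7 *KRT17* UMIs of this library, in contrast, 6 lay in barcodes without *KRT7*.

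In AD jejunum, cecum, and colon *KRT7* went with *AVIL*, a gene of tuft cells, which was looked at because *AVIL* stood at 182 CPM in AD jejunum. AD duodenum, with 5 *KRT7* UMIs and 7.54 CPM of *AVIL*, was too low to show this. The 79 AD jejunum EPCAM barcodes with an *AVIL* UMI held 315 CPM of *KRT7* (266 to 369), against 43.5 CPM (33.8 to 55.1) in the 194 without. The same held in AD cecum (231 against 4.75 CPM, 37 barcodes with *AVIL*). In AD colon 30 barcodes with *AVIL* held 212 CPM of *KRT7* and 38 of the library's 48 *KRT7* UMIs. *KRT18* followed, at 1467 against 99.7 CPM in jejunum, 1837 against 404 CPM in cecum, and 1461 against 121 CPM in colon. *KRT19* did not: it was 1262 against 883 CPM in jejunum but 1656 against 2608 CPM in cecum and 1902 against 3031 CPM in colon. *PTPRC* was less frequent in the jejunum barcodes with *AVIL* (26.6% against 52.6%). It was carried by 56.0% of all AD cecum and 62.7% of all AD colon EPCAM barcodes, and its part in these contrasts was not tested.

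*KRT15* was also found outside the forestomach. In NB rectum *KRT15* was at 23.8 CPM (21.2 to 26.6), in 69 of 1297 EPCAM barcodes, whereas *KRT5* had no UMI (limit of 3 counts, 0.235 CPM), *KRT14* had 1 UMI, and *TP63* was at 0. The *KRT15* barcodes held 2738 CPM of *KRT19* and 1558 CPM of *KRT8*, against 1716 and 903 CPM in the others, and 2.90% of them carried *PTPRC* against 19.2%. No more than 31 of the 303 *KRT15* UMIs came from any barcode. In salivary gland *KRT15* (47 UMIs in 10 barcodes) and *KRT5* (11 UMIs in 4 barcodes, 8 of them in a single barcode) were found almost wholly in barcodes with *KRT7*, which held 46 of the 47 and all 11. Without the upper limits on genes and UMIs salivary gland had 80 EPCAM barcodes with 770 CPM of *KRT15*, and the gap of *KRT15* between the forestomach and the highest other library shrank from 6.35 to 3.09 (log2), still past 4-fold. *KRT5* was then at 15.7 CPM.

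*KRT10* was present in all 15 libraries, from 4.72 CPM in AD duodenum to 47.0 CPM in NB reticulum. Its level was 47.0 CPM in reticulum (45.1 to 49.0) and 34.7 CPM in omasum (33.4 to 36.1), and the next libraries, NB colon (30.1 CPM), ileum (27.4 CPM), and duodenum (26.5 CPM), were close. A single reticulum barcode of 4732 UMIs held 293 of the 2300 *KRT10* UMIs, beside 95 of *KRT14*, 55 of *KRT17*, and 2 each of *KRT5* and *KRT15*, and without it reticulum was at 41.0 CPM. Only 4 reticulum barcodes and no omasum barcode held 10 or more *KRT10* UMIs. Its skin partner *KRT1* had 4 UMIs in reticulum and 4 in omasum (0.0818 and 0.0563 CPM) and none or 2 in each other library. RefSeq lists *KRT10* also as an older name of its neighbour *KRT28*, and the row was matched by symbol alone. *KRT28* has a row of its own in the count tables, at 0 CPM in reticulum and 0.0282 CPM in omasum.

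*KRT10* was also found in barcodes of other classes. Over the 13 libraries outside the forestomach its median was 25.4 CPM in barcodes with *EPCAM* alone, 14.4 CPM in fibroblast barcodes (9 libraries with at least 20 of them), 5.91 CPM in endothelial barcodes, and 1.73 CPM in leukocyte barcodes. For *KRT8* the same medians were 1043, 10.4, 4.19, and 4.76 CPM. In NB ileum leukocyte barcodes it reached 19.2 CPM, in 11.9% of 2300 barcodes. These were mostly barcodes with the B cell gene *CD79A* and no *CD3E* (a T cell gene), a split made after the values were seen: 22.8 CPM (20.2 to 25.6) in 1722 such barcodes. The same B cell class held 15.6 CPM in NB colon, 16.8 CPM in AD duodenum, 12.2 CPM in salivary gland, and 7.04 CPM in AD cecum, against 3.28, 1.201, 3.41, and 0.501 CPM in the barcodes with *CD3E* alone. It was lower in NB liver (3.84 CPM, 5 UMIs) and AD jejunum (2.16 CPM, 3 UMIs). Leukocyte barcodes with *MKI67* held 27.2 CPM in AD duodenum (18.1 to 39.3) against 2.43 CPM without, and 17.7 against 4.93 CPM in NB colon, at median depths of 7335 against 3604 and 10124 against 4822 UMIs. The intervals were also apart in NB cecum (5.13 against 0.748 CPM) and AD cecum (7.07 against 0.977 CPM). In the other libraries with such barcodes they overlapped, as in NB ileum (21.4 against 16.3 CPM) and rectum (1.91 against 1.66 CPM), and the level with *MKI67* was the lower one in NB abomasum (3.86 against 4.79 CPM), NB liver (1.58 against 1.66 CPM), and NB duodenum (no UMI, limit of 3 counts 5.44 CPM, against 2.50 CPM).

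*KRT17* was also found in the same B cell class in salivary gland, NB colon, and NB ileum. In salivary gland it was at 47.5 CPM (37.5 to 59.3) in 299 barcodes with *CD79A* alone, 12.7% of which had a UMI, against 1.32 CPM with *CD3E* alone. In NB colon it was at 15.3 CPM and in NB ileum at 4.62 CPM. Salivary gland leukocyte barcodes as a whole held 10.9 CPM, beside 13.4 CPM in the EPCAM barcodes, with *KRT5* at 0 in the former. In AD duodenum, jejunum, cecum, and colon *KRT17* had no UMI in EPCAM barcodes and at most 3 UMIs in leukocyte barcodes.

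**Figure D4:**
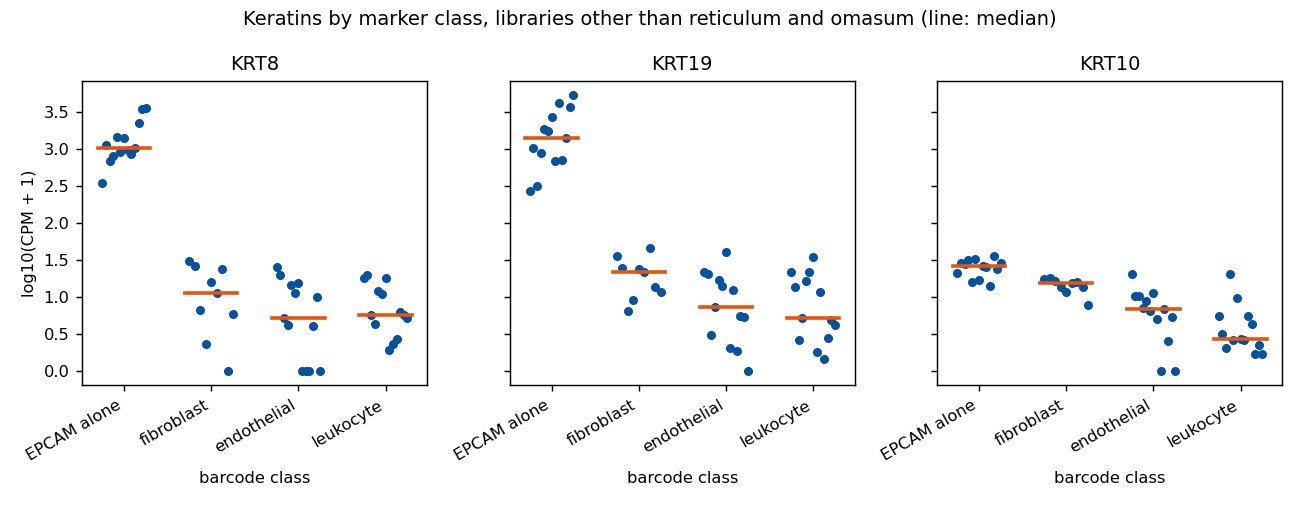
log10(CPM + 1) of *KRT8*, *KRT19*, and *KRT10* (y axis) in barcodes with a UMI of *EPCAM*, *COL1A2* (fibroblast), *PECAM1* (endothelial), or *PTPRC* (leukocyte) and none of the other 3, for the libraries outside the forestomach with at least 20 such barcodes; points are libraries and lines are medians. The medians of the first and the last class are 1043 and 4.76 CPM for *KRT8* and 25.4 and 1.73 CPM for *KRT10*.

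Across the 15 libraries the genes most like *KRT5* on the log2(CPM + 5) scale in EPCAM barcodes, among 7542 genes with a symbol and a mean of 10 CPM, were *KRT17* (Pearson r 0.993), the desmosome gene *PKP1* (0.992), the transcription factor gene *SOX15* (0.990), *KRT14* (0.986), and *DSG3* (0.986), a desmosomal cadherin. *DSG3* was at 229 and 302 CPM in the forestomach and at 0 in every other library. The genes most like *KRT8* were *CCSER1* (0.959), the epithelial transcription factor gene *ELF3* (0.951), *ALDH9A1* (0.915), *CTSS* (0.915), and *CD24* (0.913). Those most like *KRT10* were less close: *OXA1L* (0.899), *PGM2* (0.882), *PRORSD1* (0.851), *MRPL28* (0.837), and *AHCY* (0.824). The points are 2 forestomach libraries and 13 others, and each r describes these libraries only. Between members, *KRT8* ran against *KRT5* (-0.94), *KRT18* and *KRT19* ran with *KRT8* (0.82 each), and *KRT7* followed neither *KRT5* (-0.02) nor *KRT8* (0.06).

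Duodenum, jejunum, cecum, and colon were measured at both stages. In duodenum all 5 tested members were at least 2-fold higher in NB EPCAM barcodes, where 17.5% of 7511 genes were (25.4% were 2-fold higher in AD). *KRT8* was at 1064 CPM in NB and 260 CPM in AD (4.03-fold on the log2(CPM + 5) scale), *KRT19* at 953 and 185 CPM (5.05-fold), and *KRT18* at 107 and 25.5 CPM (3.68-fold). *KRT7* and *KRT10* rested on 5 UMIs each in AD. In the 45 AD duodenum EPCAM barcodes without a *PTPRC* or *COL1A2* UMI, however, *KRT8* was at 938 CPM, against 1099 CPM in the matching 3273 NB barcodes (1.17-fold), and no member was 2-fold higher in NB.

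In jejunum, cecum, and colon *KRT8* and *KRT19* were higher in AD in EPCAM barcodes. In jejunum 4 of 5 tested members were at least 2-fold higher in AD, where 17.7% of 7586 genes were (7.00% were 2-fold higher in NB): *KRT7* 7.08-fold (106 against 10.7 CPM), *KRT19* 3.68-fold (971 against 261 CPM), *KRT8* 2.79-fold (1611 against 575 CPM), and *KRT18* 2.61-fold (418 against 157 CPM). The tuft cell gene *AVIL* was at 182 CPM in AD and 0.0659 CPM in NB jejunum. In barcodes without *AVIL* the direction of *KRT18* turned, with 99.7 CPM in AD (84.7 to 117) against 156 CPM in NB (150 to 162), whereas *KRT7* (43.5 against 10.6 CPM), *KRT8* (1264 against 574 CPM), and *KRT19* (883 against 260 CPM) were still higher in AD. In cecum 2 of 4 tested members were, beside 7.39% of 7487 genes (9.34% in NB): *KRT8* 2.96-fold (2444 against 821 CPM) and *KRT19* 2.43-fold (2572 against 1056 CPM). In colon 1 of 5 was, beside 18.0% of 7601 genes (4.54% in NB): *KRT8*, 2.43-fold (1972 against 809 CPM). There *KRT19* was 1.94-fold higher in AD (2970 against 1531 CPM) and *KRT18* 1.76-fold higher in NB (343 against 193 CPM). The median of all tested genes was itself 0.14 to 0.35 (log2) higher in AD. Without *PTPRC* or *COL1A2* barcodes *KRT8* was 3.43-fold, 2.65-fold, and 3.92-fold and *KRT19* 4.69-fold, 2.20-fold, and 3.17-fold higher in AD jejunum, cecum, and colon, in that order.

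Over all kept barcodes, in contrast, *KRT8* was higher in NB jejunum (120 against 73.0 CPM) and colon (309 against 173 CPM), and so was *KRT19* (54.8 against 41.6 CPM and 591 against 256 CPM), while EPCAM barcodes made up 11.4% of NB and 2.73% of AD jejunum and 22.9% of NB and 5.26% of AD colon barcodes. Levels over all barcodes mix the share of EPCAM barcodes with the level in them. In the EPCAM barcodes of jejunum and colon both genes were higher in AD, as given above. The part of each in the levels over all barcodes was not tested. In AD duodenum, where EPCAM barcodes were 2.03%, *KRT8* was at 8.80 CPM, against 721 CPM in NB duodenum.

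**Figure D5:**
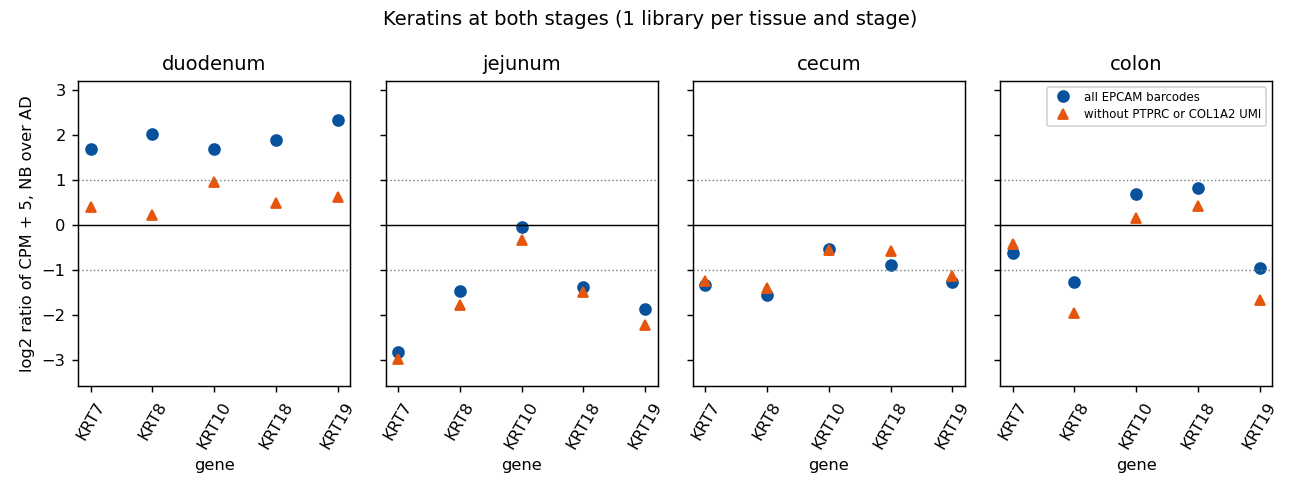
log2 ratio of CPM + 5, NB over AD (y axis), of *KRT7*, *KRT8*, *KRT10*, *KRT18*, and *KRT19* in 4 tissues, for all EPCAM barcodes (circles) and for those without a *PTPRC* or *COL1A2* UMI (triangles); dotted lines mark 2-fold and each point compares 1 library with 1 library. The duodenum circles lie between 1.69 and 2.34 and the triangles below 1, whereas *KRT8* lies below -1 in the other 3 tissues in both definitions.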

How the data were processed

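Single-cell RNA sequencing counts of 15 libraries of Holstein cattle were used, 1 per tissue and stage (11 NB and 4 AD). The deposited values are UMI counts per gene and barcode without normalization, which the authors made with Cell Ranger 3.1.0 on the ARS-UCD1.2 genome; the annotation release is not given in the sources used here. Barcodes with 500 to 4000 genes, under 50000 UMIs, and under 40% UMIs of 13 mitochondrial genes were kept, as in the paper's methods. In place of DoubletFinder, barcodes were scored against artificial doublets as Scrublet does (2 made per barcode, 2000 genes, 30 principal components), and the top 0.8% per 1000 barcodes were removed. Total UMIs were 17707625 to 129458578 per library.

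UMIs were summed per library and barcode class (all kept, EPCAM, or 1 marker alone) and scaled to CPM. Comparisons used log2(CPM + 5) and genes with a mean of 10 CPM, with 4-fold (forestomach) or 2-fold (other comparisons) as the call. Shares were also computed after thinning each barcode to 1000 UMIs. Intervals are 95% exact Poisson and Clopper-Pearson, and the limit for a count of 0 is 3 counts. With 1 library per group there was no test. The named genes were the 10 members, the 2 most abundant forestomach genes of each list, and the 5 genes most like *KRT5*, *KRT8*, and *KRT10*; other genes were named after their values were seen. The members and lists were chosen with earlier results of these data known. Python 3.11.15, NumPy 2.4.6, SciPy 1.17.1, pandas 2.3.3, scikit-learn 1.9.0, and matplotlib 3.10.9 were used. Alternatives covered the filters, doublets, the definition of EPCAM barcodes, scaling, pseudocount, fold, and thinning. Rumen, mammary gland, and other AD tissues were not analysed here. *KRT13* has no symbol in the count tables and was not analysed here.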

Additional observations from a re-analysis of the deposited data

Results flagged for a closer look

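Of the simple keratins, 4 differed between stages in opposite directions in different tissues. Each value is 1 NB against 1 AD library on the log2(CPM + 5) scale in EPCAM barcodes, and the difference between tissues was not tested. *KRT7* was 1.69 (log2) higher in NB duodenum and -2.82 in jejunum. *KRT8* was at 2.01 in duodenum and at -1.48 in jejunum, -1.57 in cecum, and -1.28 in colon. *KRT18* was at 1.88 in duodenum and -1.39 in jejunum. In jejunum barcodes without the tuft cell gene *AVIL*, however, *KRT18* was at 99.7 CPM in AD (194 barcodes, with 79 left out) and 156 CPM in NB. *PTPRC* was carried by 45.1% of AD and 9.38% of NB jejunum EPCAM barcodes. The parts of *AVIL* and *PTPRC* barcodes in the jejunum direction of *KRT18* were not tested. *KRT19* was at 2.34 in duodenum, -1.88 in jejunum, and -1.28 in cecum. AD duodenum EPCAM barcodes carried *PTPRC* in 76.7% and *CDH1* in 5.18% of cases, and in the 45 of them without *PTPRC* or *COL1A2* the duodenum values were 0.40 for *KRT7*, 0.23 for *KRT8*, 0.49 for *KRT18*, and 0.62 for *KRT19*. In barcodes with *CDH1* in place of *EPCAM* the duodenum values of *KRT7* and *KRT18* were -0.071 and -0.16, so these 2 no longer went opposite ways in duodenum and jejunum. They rest on few UMIs, since AD duodenum held 5 of *KRT7* and 31 of *KRT18* over all kept barcodes.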

How the results depend on the processing

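The calls of *KRT5*, *KRT14*, *KRT15*, and *KRT17* as higher in the forestomach were the same under every alternative tried, including the 3 that left out the salivary gland, the liver, or both, which were added after the data had been seen. The number of members called lower was 2 under each of these but 0 over all kept barcodes. Over 14 alternatives, these 3 included, the log2 gap ran from 6.75 to 10.3 for *KRT5*, 8.73 to 11.9 for *KRT14*, 3.09 to 9.39 for *KRT15*, and 6.06 to 7.77 for *KRT17*. *KRT5*, *KRT14*, and *KRT17* passed the required mean through the forestomach alone, so the sameness of their calls is a description only. The same holds for the number called lower, since *KRT8* and *KRT18* passed the mean through the other NB libraries alone. Of the 12 stage differences past 2-fold, 12 stayed so with other pseudocounts or without the most abundant genes in the scaling, 10 with doublets left in or median-of-ratios scaling, 9 without the upper limits or under 10% mitochondrial UMIs, 8 with *CDH1*, 7 over all kept barcodes, 7 without *PTPRC* or *COL1A2* barcodes, and 6 with at least 2 *EPCAM* UMIs. With *CDH1* in place of *EPCAM*, the duodenum values of *KRT7* and *KRT18* turned to -0.071 and -0.16 (log2), where AD duodenum held at most 5 and 31 UMIs of them. Over all kept barcodes the values of *KRT8* turned to 0.68 in jejunum and 0.82 in colon, of *KRT18* to 0.75 and of *KRT19* to 0.36 in jejunum. The cause of these turns was not tested. Of the log2 ratios with over without *MKI67*, 8 were counted as changed and 12 as the same with doublets left in. Without thinning, 5 were counted as changed and 15 as the same. Of the log2 odds ratios of keratin pairs, 15 were counted as changed and 75 as the same at 500 UMIs. At 2000 UMIs these counts were 16 and 74. Over all genes the number called lower ran from 13 (10 CPM pseudocount, or at least 2 *EPCAM* UMIs) to 102 (2-fold call), beside 20, and the number called higher from 67 to 141, beside 73. No paired analysis was possible because each tissue and stage had 1 library and no replicate numbers were given. The liver, salivary gland, and AD duodenum values rest on few EPCAM barcodes (214, 72, and 193).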
